A study of Rattus norvegicus with 12 samples.

Results

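Across whole rat ovaries, 10 genes of the matricellular proteins and elastic fibres were followed: Tnc, Thbs1, Thbs2, Fn1, Postn, Spp1, Sparc, Fbln5, Fbn1 and Eln. They were chosen by the measured FPKM of Tnc, which was higher after mogroside V treatment than without it in these same libraries, so that contrast is described for the 10 genes and not tested. All 10 had a row among the 19730 genes of the deposited table, and all 10 were among the 13430 whose mean reached 1 FPKM over the 12 libraries. FPKM is the number of sequenced fragments scaled to transcript length and to library size, so levels of different genes can be set side by side.

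Matricellular proteins are secreted into the matrix around cells, where they signal through integrins and proteoglycans more than they bear load. Elastic fibres are the stretchable part of the same matrix, built from an elastin core on a fibrillin scaffold with the help of fibulins. In the ovary this matrix is taken down and rebuilt as follicles grow, rupture and turn into corpora lutea, and tenascin C, the thrombospondins and fibronectin are known as proteins of tissue under repair or forming new vessels.

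RNA from the ovaries of wild type female Sprague Dawley rats at postnatal week 15 was sequenced, with 1 library per rat and 4 rats in each of 3 groups. Control rats ate standard food. PCOS rats, a model of polycystic ovary syndrome, received oral letrozole, an aromatase inhibitor, at 1 mg/kg/day for 30 days together with a high-fat diet, and were taken as models when vaginal smears stayed in metestrus and diestrus. PCOS-MV rats had the same letrozole and diet and then mogroside V, a sweet triterpenoid glycoside of monk fruit, by gavage at 600 mg/kg/day for 30 days. No vehicle is named for the control rats, or for the PCOS rats over those later days. PCOS and control rats therefore differed in diet as well as in letrozole, and these cannot be told apart. The study also reports a longer diestrus in PCOS than in control rats. The cycle stage of each ovary at collection is not given in the sources used here.

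The 12 libraries summed to between 339830 and 373758 FPKM and held between 17576 and 18247 genes above 0. The read depth behind them is unknown, since no counts are in the table. Granulosa markers summed to 565–1264 FPKM over all libraries. Of the 4 cartilage markers taken as an absent tissue, Col2a1, Matn3 and Col9a1 stayed below 0.1 FPKM in every library, but Acan, the gene of aggrecan, did not. Acan stood at 34.1–131 FPKM in control, 18.2–26.8 in PCOS and 51.6–101 in PCOS-MV ovaries, with log2 differences of −1.56 in PCOS against control (limma adjusted p = 0.0139) and 1.83 in PCOS-MV against PCOS (limma adjusted p = 0.00079). Some libraries stood apart. Control replicate 3 had 14.8 FPKM of ciliated oviduct markers (3 of the 5 listed had a row), against at most 3.37 in the other controls, and the highest smooth muscle sum, 978 FPKM. PCOS-MV replicates 2 and 4 had theca sums of 780 and 810 FPKM and luteal sums of 2198 and 2168 FPKM, whereas PCOS-MV replicates 1 and 3 had theca sums of 2832 and 1924 and luteal sums of 4217 and 4560. Most of each of those theca sums was Cyp11a1, at 2632, 757, 1808 and 772 FPKM in replicates 1 to 4. Results for single genes that rest on these libraries are given with and without them.

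The stretches just upstream of Tnc, Thbs1 and Fbln5 are shown because these genes have a promoter entry in RefSeq and stood apart between groups in opposite directions: Tnc and Thbs1 were lowest in the PCOS ovaries and Fbln5 was highest there. Of the 10 genes, 7 matched an entry. The sequences are from RefSeq on the GRCr8 build, read 5′ to 3′ on the strand of the gene. They begin 250 bases upstream of the start site that RefSeq gives and stop before the annotated gene. For Tnc and Fbln5 the annotated gene begins upstream of that start site, so only 184 and 109 bases are shown. Capitals mark motifs found on either strand.
Tnc, chr5:82476198-82476381, minus strand: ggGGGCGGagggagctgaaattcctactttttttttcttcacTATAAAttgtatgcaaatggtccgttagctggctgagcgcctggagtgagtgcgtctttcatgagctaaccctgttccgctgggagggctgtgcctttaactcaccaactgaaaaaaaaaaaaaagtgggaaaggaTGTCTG
Thbs1, chr3:125510000-125510249, plus strand: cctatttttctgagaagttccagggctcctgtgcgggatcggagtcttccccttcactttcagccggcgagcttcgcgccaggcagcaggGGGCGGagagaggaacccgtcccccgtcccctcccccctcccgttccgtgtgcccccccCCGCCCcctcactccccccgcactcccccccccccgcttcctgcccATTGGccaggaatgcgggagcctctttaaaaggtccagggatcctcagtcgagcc
Fbln5, chr6:126742848-126742956, minus strand: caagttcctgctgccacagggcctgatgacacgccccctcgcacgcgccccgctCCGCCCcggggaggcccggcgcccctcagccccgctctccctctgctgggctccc

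Upstream of Tnc, a GC box (GGGCGG) lies at −248, a TATA box (TATAAA) at −208 and a SMAD CAGA box (CAGACA, read here as TGTCTG) at −72, counted from the start site that the RefSeq table gives. Thbs1 has GC boxes at −160 and −101 and a CCAAT box at −55, the last 2 read on the other strand. Fbln5 has a GC box at −196, also on the other strand. The search covered the 250 bases upstream of the start site, which is more than the stretch shown for Tnc and Fbln5. Among all 33469 promoters searched over the same 250 bases, 30.5% hold the GC box, 12.9% the TATA box, 34% the CCAAT box and 17.2% the CAGA box. An AP-1 site (TGANTCA) and a cAMP response element (TGACGTCA) were also searched for and were in 0 of the 7 promoters, against 6.34% and 1.59% of all promoters. These matches describe letters in a window and no binding was measured.

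Tnc encodes tenascin C, a many-armed glycoprotein that loosens the hold of cells on fibronectin and is mostly found in tissue being remodelled. The deposited table puts the gene on chromosome 5 at 79789671 to 79874671, on the minus strand, in a build it does not name. Tnc stood at 7.37, 11.3, 9.37 and 16.7 FPKM in control replicates 1 to 4. PCOS ovaries 1 to 4 gave 0.714, 0.822, 0.658 and 1.19 FPKM, and PCOS-MV ovaries 1 to 4 gave 7.81, 67.2, 5.92 and 135 FPKM. Every PCOS ovary was below every control ovary and below every PCOS-MV ovary, and PCOS-MV replicates 2 and 4 were far above all others.

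On the log2(FPKM + 1) scale, Tnc was lower in PCOS than in control ovaries by a difference of −2.68 (SE 0.22, 4 libraries against 4), and higher in PCOS-MV than in PCOS ovaries by 3.90 (SE 0.90). The group means stood 13.2-fold and 63.8-fold apart as plain FPKM. Since these libraries chose the gene set, no test goes with these values. PCOS-MV and control ovaries overlapped, with a difference of 1.22 (SE 0.93). With PCOS-MV replicates 2 and 4 both left out, the difference from PCOS was 2.09 and that from control was −0.59, so the height of the PCOS-MV mean and the sign of its difference from control rested on 2 ovaries. The SD of Tnc within the PCOS-MV group, 2.14 on the log2 scale, was larger than that of 99.8% of the tested genes, whose median was 0.17. In the control group it was 0.46 and in the PCOS group 0.18.

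**Figure D1:**
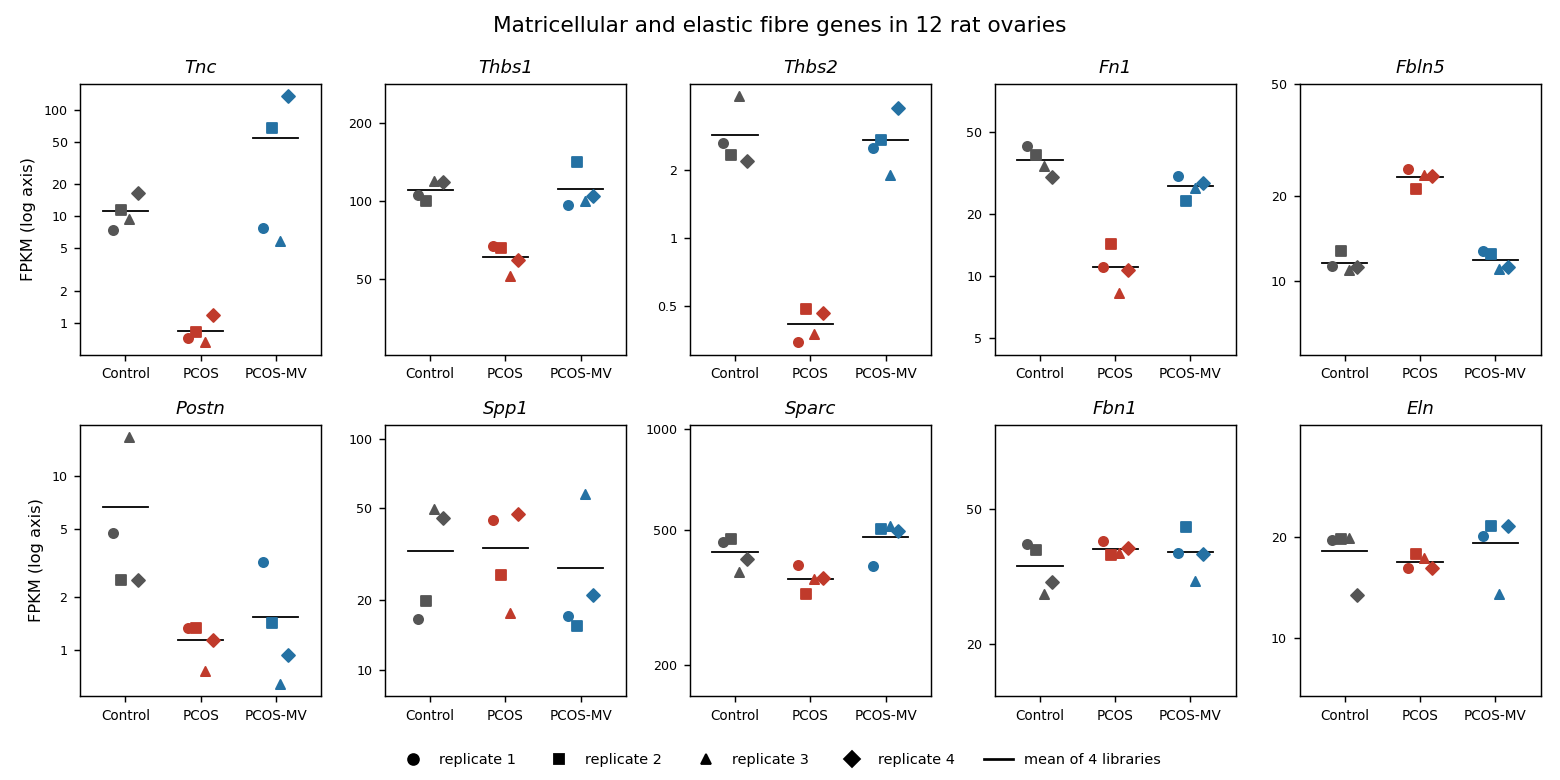
FPKM (log axis, range set for each panel) of the 10 genes in each of the 12 ovaries, with marker shapes for replicates and black lines for group means. The 4 PCOS ovaries lie apart from the other 8 for Tnc, Thbs1, Thbs2, Fn1 (all lower) and Fbln5 (higher), and PCOS-MV replicates 2 and 4 carry the high Tnc values.

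The order of the 10 genes by mean FPKM showed how far Tnc travelled. Sparc was highest and Thbs1 next in every group. Tnc ranked 8 in control ovaries with 11.2 ± 3.99 FPKM (SD, n = 4), where its range overlapped those of its neighbours Fbln5, at 11.6 ± 0.806, and Postn. It ranked 9 in PCOS ovaries with 0.845 ± 0.238 FPKM, overlapping Postn at 1.13 ± 0.271 and lying above Thbs2 at 0.418 ± 0.0682. In PCOS-MV ovaries it ranked 3 with 53.9 ± 61.0 FPKM, a range that overlapped Thbs1 above it and the genes ranked 4 to 8 below it. By group mean, Tnc exceeded 53.6% of tested genes in the control group, 2.10% in the PCOS group and 91.3% in the PCOS-MV group. With PCOS-MV replicates 2 and 4 left out, it ranked 8 in that group at a mean of 6.86 FPKM, below Fbln5, and exceeded 39.1% of tested genes.

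For PCOS against control ovaries the question was which of the other 9 genes differed in the disease model. Of these, 4 were lower (Fn1, Thbs1, Thbs2 and Postn), 1 was higher (Fbln5) and 4 were not called (Sparc, Spp1, Fbn1 and Eln) at an adjusted p under 0.05, by limma on log2(FPKM + 1) with Benjamini-Hochberg adjustment over the 13430 tested genes. Across all tested genes 27.4% were called, 11.9% higher and 15.6% lower. The groups did not overlap for 5 of the 9 genes, against 31% of all tested genes. The median difference of the 9 was −0.25 and that of all tested genes −0.03. These PCOS libraries are also part of the contrast that chose the set, although only Tnc was named in that choice. For a single gene, an exact two-sided permutation of 4 against 4 libraries cannot go below p = 0.0286, and Fn1, Thbs1, Thbs2, Postn and Fbln5 each reached that value.

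Fn1 encodes fibronectin, the fibril-forming glycoprotein to which integrins and tenascin C bind (chromosome 9, 78900103 to 78969078, minus strand). In control replicates 1 to 4 it stood at 42.9, 38.8, 34.0 and 30.2 FPKM, in the PCOS ovaries at 11.1, 14.2, 8.30 and 10.7, and in the PCOS-MV ovaries at 30.6, 23.1, 26.9 and 28.4. The PCOS ovaries lay below all the rest. In PCOS against control Fn1 had a log2 difference of −1.64 (SE 0.16, limma adjusted p = 0.000168). Another gene, AABR07068042.1, overlaps Fn1 on the opposite strand in the table, and counting by strand is not stated, so reads of the pair cannot be told apart.

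Thrombospondins 1 and 2 are secreted glycoproteins that restrain the growth of new vessels, and thrombospondin 1 also releases TGF-β from its latent form. Thbs1 (chromosome 3, 109862117 to 109873466, plus strand) stood at 105, 99.9, 119 and 118 FPKM in control ovaries, at 67.0, 65.8, 51.4 and 59.4 in PCOS ovaries, and at 96.7, 141, 100.4 and 105 in PCOS-MV ovaries. Its log2 difference was −0.86 in PCOS against control (SE 0.10, limma adjusted p = 0.000559). Thbs2 (chromosome 1, 56653938 to 56683731, minus strand) was scarce in every group. It stood at 2.61, 2.34, 4.24 and 2.19 FPKM in control ovaries, at 0.345, 0.486, 0.375 and 0.465 in PCOS ovaries, and at 2.5, 2.71, 1.90 and 3.75 in PCOS-MV ovaries. Its difference in log2(FPKM + 1) was −1.41 in PCOS against control (SE 0.17, limma adjusted p = 0.000492). At such levels the added 1 understates the change, and the log2 ratio of the mean FPKM was −2.77. Both thrombospondins were lowest in the 4 PCOS ovaries, but not in proportion: Thbs1 exceeded Thbs2 28.2-fold to 54.0-fold in control ovaries, 128-fold to 194-fold in PCOS ovaries and 27.9-fold to 52.7-fold in PCOS-MV ovaries.

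Fbln5 encodes fibulin 5, which tethers elastin to integrins and guides its assembly on microfibrils (chromosome 6, 125644804 to 125723944, minus strand). It ran opposite to the genes above. Fbln5 stood at 11.3, 12.8, 11.0 and 11.3 FPKM in control ovaries, at 25.0, 21.1, 23.8 and 23.6 in PCOS ovaries, and at 12.8, 12.4, 11.0 and 11.2 in PCOS-MV ovaries. It rose by 0.95 on the log2 scale in PCOS against control (SE 0.077, limma adjusted p = 6.31e-05), and the group means were 2.02-fold apart. Its replicates were close, with a coefficient of variation between 6.96% and 7.38% in the 3 groups.

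The other elastic fibre genes of the set did not follow Fbln5. Fbn1, which encodes the fibrillin of the microfibril scaffold (chromosome 3, 117569697 to 117766120), ranged from 28.0 to 39.4 FPKM in control, 36.4 to 40.3 in PCOS and 30.6 to 44.2 in PCOS-MV ovaries. Its difference in PCOS against control was 0.17 (95% interval −0.08 to 0.43, limma adjusted p = 0.290). Eln, the gene of elastin itself (chromosome 12, 24978483 to 25021863), ranged from 13.4 to 19.8, 16.2 to 17.8 and 13.6 to 21.7 FPKM in the same order of groups, with a difference of −0.08 (95% interval −0.37 to 0.20, limma adjusted p = 0.651). Both genes overlapped between all groups.

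Postn encodes periostin, a collagen-binding protein of fibroblasts (chromosome 2, 143656793 to 143688087). It stood at 4.68, 2.51, 16.8 and 2.53 FPKM in control ovaries, at 1.32, 1.33, 0.754 and 1.13 in PCOS ovaries, and at 3.20, 1.43, 0.636 and 0.933 in PCOS-MV ovaries. The highest value was that of control replicate 3, the library with oviduct markers. Its log2 difference was −1.49 in PCOS against control (SE 0.47, limma adjusted p = 0.0472). Without control replicate 3 the difference was −0.96 with a limma adjusted p of 0.00891. The call was lost in 5 of the 8 fits that left out 1 library (without control replicate 1 or without any 1 of the PCOS replicates), where the limma adjusted p was 0.0779 to 0.11.

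Spp1 and Sparc bind calcium and are named for bone, though both are made in many soft tissues. Spp1, the gene of osteopontin, a ligand of integrins and of CD44 (chromosome 14, 6673686 to 6679901), spread widely inside each group, from 16.5 to 49.6 FPKM in control, 17.6 to 47.1 in PCOS and 15.4 to 57.3 in PCOS-MV ovaries. Its difference in PCOS against control was 0.09 (95% interval −0.89 to 1.07, limma adjusted p = 0.898), an interval that leaves room for large changes either way. Sparc, a collagen-binding protein of the matrix (chromosome 10, 40742400 to 40764185), was the most abundant of the set. It ranged from 376 to 473 FPKM in control, 323 to 396 in PCOS and 392 to 513 in PCOS-MV ovaries. Its difference in PCOS against control was −0.25 (95% interval −0.49 to −0.02, limma adjusted p = 0.105), and without control replicate 3 it was −0.32 with a limma adjusted p of 0.0489.

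**Figure D2:**
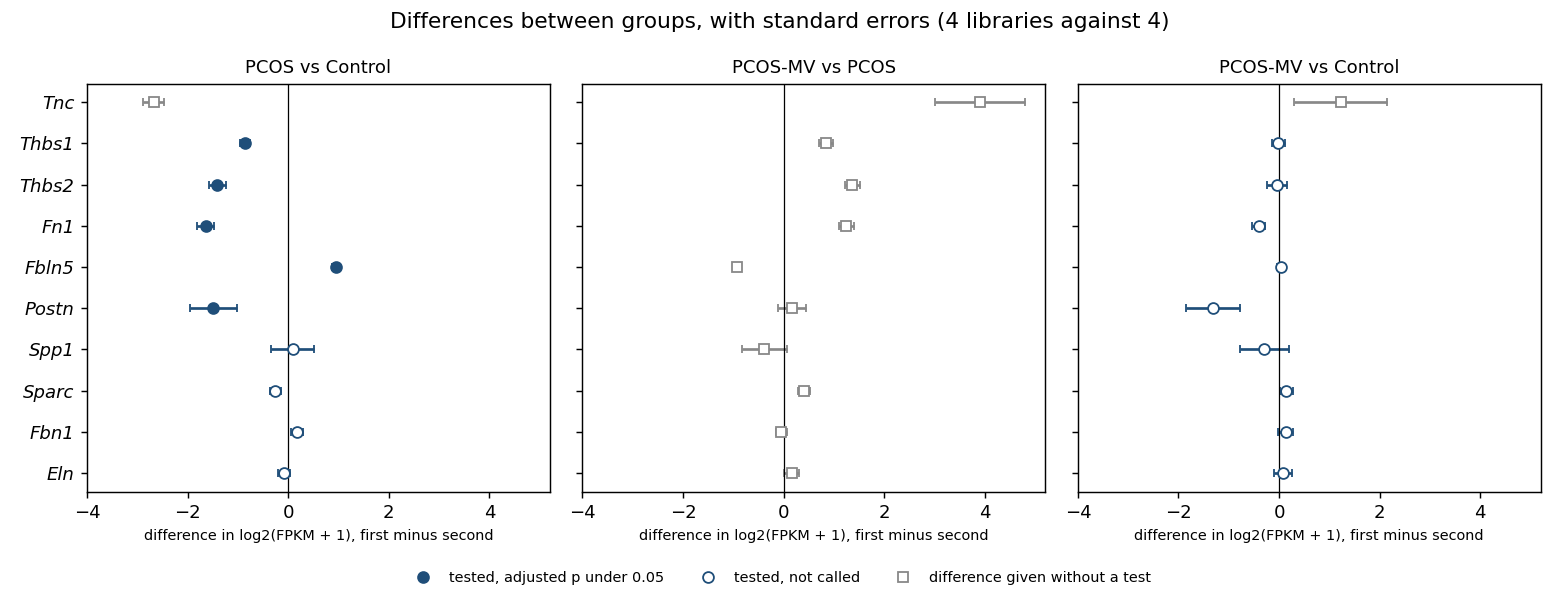
Differences in log2(FPKM + 1) between group means with their standard errors, 4 libraries against 4, for PCOS against control, PCOS-MV against PCOS and PCOS-MV against control. Filled circles were called by limma, open circles were tested and not called, and grey squares are given without a test. In PCOS against control 5 circles are filled, and in PCOS-MV against control none is.

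PCOS-MV against PCOS is the contrast behind the choice of the set, and it is described without a test. The differences on the log2 scale were 1.37 (SE 0.15) for Thbs2, 1.24 (SE 0.15) for Fn1, 0.84 (SE 0.14) for Thbs1 and −0.92 (SE 0.079) for Fbln5. In these 4 genes, as in Tnc, the groups did not overlap, while 30% of all tested genes had groups that did not overlap in this contrast. The differences were smaller or less certain for Sparc at 0.40 (SE 0.12), Postn at 0.17 (SE 0.27), Eln at 0.16 (SE 0.14), Fbn1 at −0.04 (SE 0.11) and Spp1 at −0.38 (SE 0.45), and those groups overlapped. With PCOS-MV replicates 2 and 4 left out, Thbs2, Fn1, Thbs1 and Fbln5 stood at 1.17, 1.32, 0.69 and −0.92. Unlike for Tnc, these values were about as large without those 2 ovaries as with them. The smaller differences moved to 0.32 for Sparc, 0.305 for Postn, −0.17 for Fbn1, 0.00444 for Spp1 and −0.0262 for Eln, so those of Spp1 and Eln changed sign. This contrast and the 1 before it share the PCOS libraries, so opposite signs in both are not independent.

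For PCOS-MV against control the question was whether the treated ovaries still differed from untreated ones. By limma 0 of the 9 genes were called, against 0.00745% of all tested genes (1 gene). At an unadjusted p under 0.05 stood 2 of the 9, against 8.5% of all tested genes. Fn1 was at −0.40 (95% interval −0.69 to −0.11, limma adjusted p = 0.509, exact permutation p = 0.0571), and Postn was at −1.32 (95% interval −2.55 to −0.09, limma adjusted p = 0.571, exact permutation p = 0.0857). None of the 9 had groups that did not overlap, against 5.1% of all tested genes. The 95% intervals were −0.31 to 0.29 for Thbs1, −0.50 to 0.42 for Thbs2, −0.15 to 0.22 for Fbln5, −0.15 to 0.44 for Sparc, −0.20 to 0.46 for Fbn1 and −0.34 to 0.48 for Eln. That of Spp1 was wider, at −1.415 to 0.831. A remaining difference inside these intervals was not detectable with 4 ovaries a group.

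The related genes were read from 3 lists. These were chosen with earlier results of these data known, so their shares of called genes and their medians are descriptions only. The other matricellular genes held 22 names, of which 21 had a row and 13 were tested. In PCOS against control 2 were higher and 2 were lower, a share near the background given above. Dmp1, a phosphoprotein of mineralising matrix from the family of osteopontin, rose by 1.91 on the log2 scale (SE 0.13, limma adjusted p = 2.95e-05), from 0.375–0.565 FPKM in control to 3.77–5.46 in PCOS ovaries. Dmp1 reached the mean of 1 FPKM needed for testing only through the PCOS group, where it was high, so its call does not count in favour of the list. With no filter on low values its limma adjusted p was 0.000118. Tgfbi, a TGF-β-induced relative of periostin, rose by 0.46 (SE 0.11), a call that was lost without PCOS replicate 2 (limma adjusted p = 0.0551) or without PCOS replicate 4 (0.0569). Ccn2, or connective tissue growth factor, fell by 1.15 (SE 0.31), and Smoc2, a calcium-binding relative of Sparc, fell by 0.84 (SE 0.24). The Ccn2 and Smoc2 groups overlapped, and both calls were fragile. Of the 8 fits that left out 1 library, Ccn2 was called in 3 and lost without control replicate 2 or 4 or PCOS replicate 2, 3 or 4 (limma adjusted p = 0.0539 to 0.0647). Smoc2 was called in 2 of those fits, without control replicate 1 and without PCOS replicate 2, and otherwise had a limma adjusted p of 0.0608 to 0.0807. In PCOS-MV against PCOS, where 25.7% of all tested genes were called, 14.3% higher and 11.4% lower, Smoc1 was higher by 0.39 (SE 0.11), Dmp1 fell by 2.08 (SE 0.13) to 0.127–0.387 FPKM and Tgfbi fell by 0.60 (SE 0.12). The other 10 were not called. The call of Smoc1 was lost with PCOS-MV replicates 2 and 4 left out (limma adjusted p = 0.0688), and also without PCOS replicate 2, 3 or 4 or PCOS-MV replicate 1 alone (0.0574 to 0.0819). Dmp1 and Tgfbi kept their calls with PCOS-MV replicates 2 and 4 left out (limma adjusted p = 0.000704 and 0.0465).

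The other elastic fibre genes held 23 names, of which 21 had a row and 20 were tested. In PCOS against control 7 were higher and 3 lower, where 11.9% of all tested genes were higher and 15.6% lower. In PCOS-MV against PCOS 5 were higher and 4 lower, against 14.3% and 11.4% of all tested genes. The median difference of the 20 was −0.01 and −0.03, against −0.03 and 0.03 over all tested genes. Among those higher in PCOS were Efemp1, which encodes a fibulin (1.19, SE 0.24), and Adamtsl2, a protein that binds fibrillin microfibrils (0.97, SE 0.12). Among the lower were Loxl2, a lysyl oxidase that crosslinks collagen and elastin (−1.84, SE 0.20, limma adjusted p = 0.000333), and Fbln1, a fibulin that binds fibronectin (−1.16, SE 0.12). Loxl2 stood at 25.0–47.8 FPKM in control, 7.37–11.8 in PCOS and 19.5–40.3 in PCOS-MV ovaries, so the PCOS ovaries lay below all others. In PCOS-MV against PCOS, Loxl2 rose by 1.35 (SE 0.23) and Fbln1 by 1.25 (SE 0.25), while Adamtsl2 fell by 0.97 (SE 0.13) and Ltbp4, a latent TGF-β binding protein needed for elastic fibres, fell by 0.90 (SE 0.10). With PCOS-MV replicates 2 and 4 left out, Loxl2, Fbln1, Adamtsl2 and Ltbp4 kept these calls. Fbln1 was then nearest the limit, at 0.87 (limma adjusted p = 0.0499). The fibulins thus did not move together: Fbln5 and Efemp1 rose in PCOS ovaries and Fbln1 fell.

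The receptors of these proteins held 18 names, of which 16 had a row and 14 were tested. In PCOS against control 7 were lower and 1 was higher, against 15.6% and 11.9% of all tested genes, and in PCOS-MV against PCOS 8 were higher and 2 lower, against 14.3% and 11.4%. The median differences were −0.40 and 0.48, against −0.03 and 0.03 over all tested genes. Both contrasts share the PCOS libraries, so opposite signs in them are not independent, here and in the lists above. Sdc1 encodes syndecan 1, a cell-surface heparan sulphate proteoglycan that binds tenascin C, fibronectin and thrombospondin. It ranged from 98.6 to 178 FPKM in control, from 11.0 to 13.9 in PCOS and from 45.6 to 129 in PCOS-MV ovaries. Its log2 difference was −3.34 in PCOS against control (SE 0.20, limma adjusted p = 1.68e-05) and 2.59 in PCOS-MV against PCOS (SE 0.27, limma adjusted p = 0.000427). Itga8, the integrin subunit that pairs with beta 1 to bind fibronectin and tenascin C, fell by 1.73 (SE 0.23) and rose by 1.66 (SE 0.25). Itga9, the subunit of another tenascin C receptor, went the other way, rising by 1.17 (SE 0.12) and falling by 0.69 (SE 0.085). Stab1, a scavenger receptor that takes up Sparc, fell by 0.44 (SE 0.080) in PCOS-MV against PCOS. Sdc1, Itga8, Itga9 and Stab1 kept their calls in PCOS-MV against PCOS with PCOS-MV replicates 2 and 4 left out (limma adjusted p = 0.000515 to 0.0405).

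**Figure D3:**
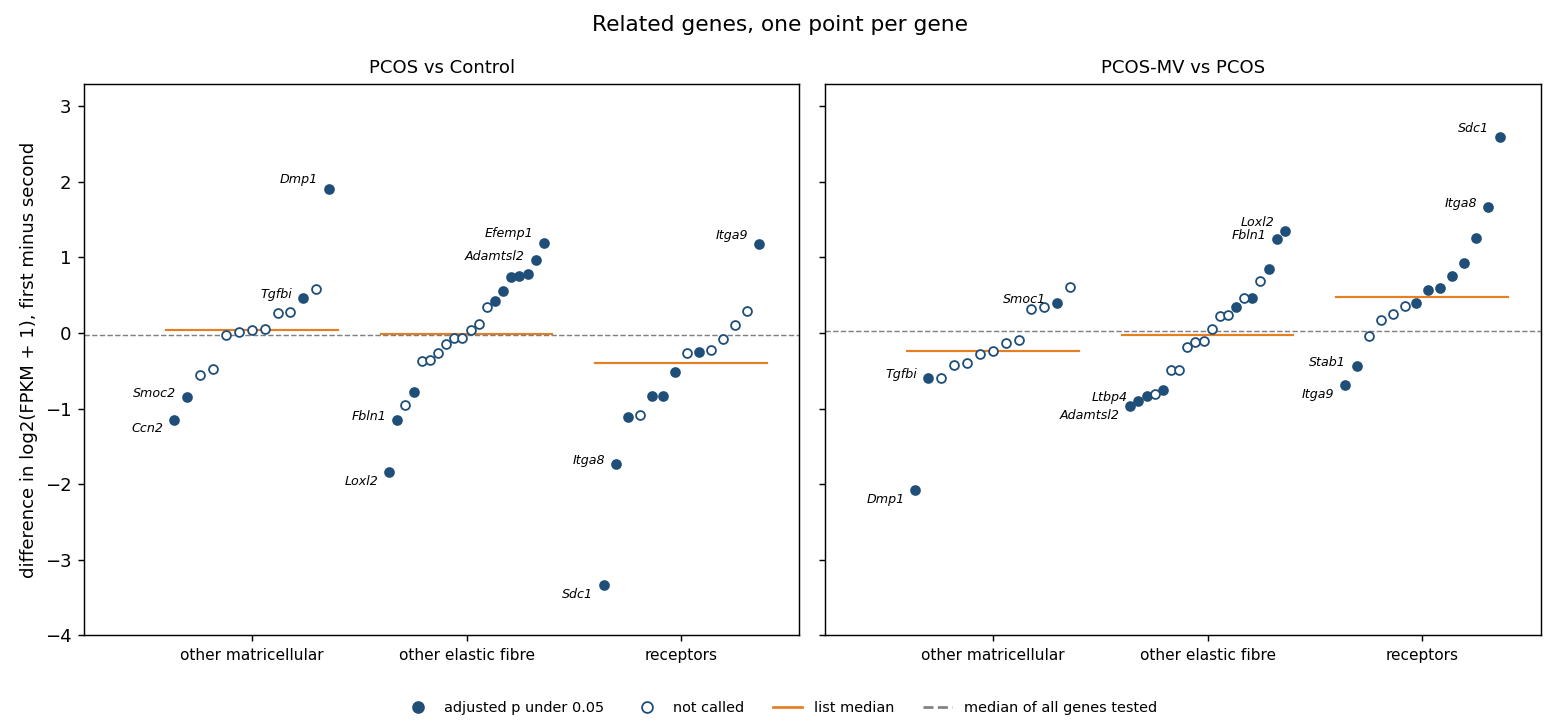
Differences in log2(FPKM + 1), 1 point per tested gene, for 13 other matricellular genes, 20 other elastic fibre genes and 14 receptors, in PCOS against control and PCOS-MV against PCOS. Filled points were called by limma, orange lines are list medians and the dashed line is the median of all tested genes. The receptors lie mostly below that line in the first panel and above it in the second, with Sdc1 farthest out at −3.34 and 2.59. The lists were chosen with earlier results of these data known.

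In PCOS-MV against control limma called 0 genes in each of the 3 lists. At an unadjusted p under 0.05 there were 3 of 13 other matricellular genes, 4 of 20 other elastic fibre genes and 2 of 14 receptors, against 8.5% of all tested genes.

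The genes whose profile over the 12 libraries had the shape most like that of Tnc were Vdr, Adamts3, Epb41l4b, Kl and Fstl3. The measure was the root mean square difference of z-scored log2(FPKM + 1), which was 0.148, 0.183, 0.249, 0.258 and 0.260. It compares shape and not level: Vdr ran from 0.614 to 3.41 FPKM, against 0.658 to 135 for Tnc. Vdr encodes the vitamin D receptor, Adamts3 a procollagen-processing protease, Epb41l4b a protein of the membrane skeleton, Kl the co-receptor klotho and Fstl3 a follistatin-like binder of activin. Each was highest in PCOS-MV replicates 4 and 2, in that order, as genes picked for nearness to Tnc would be. Kl stood at 18.9 and 13.4 FPKM there, at 3.89 and 2.24 in the other PCOS-MV ovaries, at 3.18–4.31 in control and at 1.13–1.69 in PCOS ovaries. Adamts3 stood at 5.08 and 4.27 FPKM in those 2 ovaries and at 1.17–1.85 in the other PCOS-MV ovaries. Within the set, Thbs2 was nearest to Tnc at 0.580, with 278 tested genes nearer, then Thbs1 at 0.599 with 333 nearer, whereas Fbln5 was farthest at 1.88 with 13099 nearer.

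**Figure D4:**
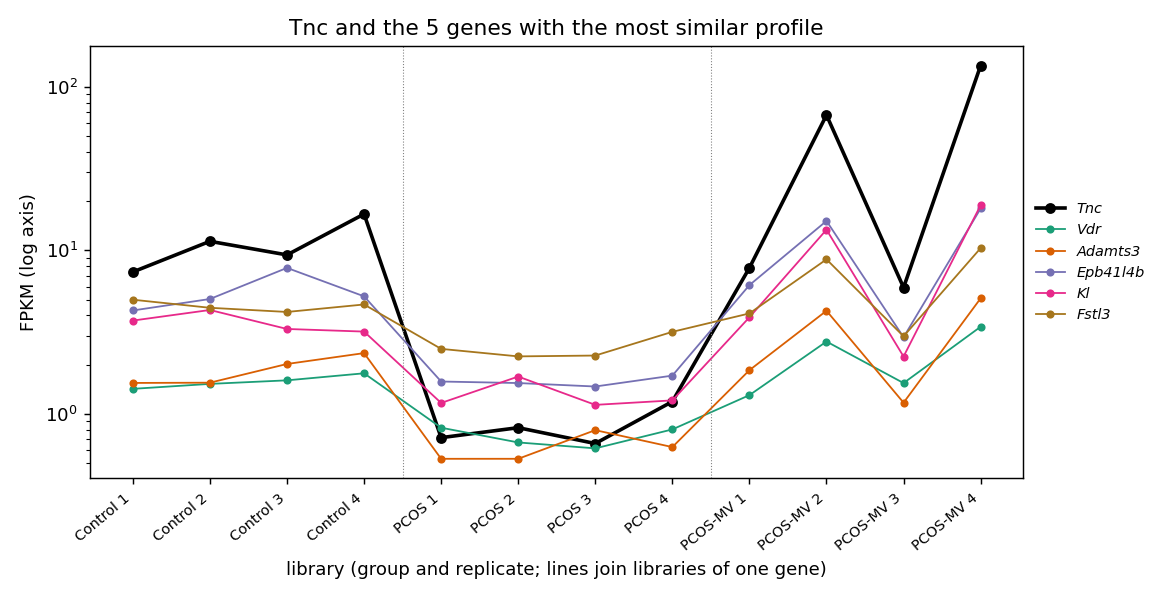
FPKM (log axis) of Tnc and of the 5 tested genes with the most similar profile in each of the 12 libraries, with dotted lines between groups. All 6 genes are lowest in the PCOS ovaries, except that Fstl3 was at 3.17 FPKM in PCOS replicate 4 and 2.98 in PCOS-MV replicate 3, and all peak in PCOS-MV replicates 2 and 4, where Tnc reached 67.2 and 135 FPKM.

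Markers of several of the cell types an ovary holds moved along with the groups, and in whole tissue fewer cells of a type and less RNA per cell cannot be told apart. Markers counted below as higher or lower were called by limma at an adjusted p under 0.05. In PCOS against control 11.9% of all tested genes were called higher and 15.6% lower. Endothelial markers summed to 98.8–123 FPKM in control, 62.0–77.9 in PCOS and 84.1–123 in PCOS-MV ovaries, with 4 of 5 tested markers lower and 1 higher in PCOS against control. Luteal markers summed to 2952–5003, 1051–2083 and 2168–4560 FPKM in the same order, with 3 of 5 lower in PCOS. These ran the same way as Fn1, Thbs1 and Thbs2. Theca markers summed to 1356–3118, 2346–4455 and 780–2832 FPKM, with 3 of 4 tested markers higher in PCOS, as Fbln5 was, and 1 lower. In control and PCOS-MV ovaries most of that sum was Cyp11a1, at 1307–2967 and 757–2632 FPKM. Cyp11a1 was the marker that fell in PCOS (−1.14, limma adjusted p = 0.0161). Cyp17a1 stood at 17.0–63.6, 655–1866 and 1.57–88.1 FPKM in control, PCOS and PCOS-MV ovaries, and Insl3 at 1.76–8.84, 906–1188 and 4.91–14.5. The granulosa sum also ran the way of Fbln5, at 565–770, 874–1264 and 568–865 FPKM, with 3 of 6 higher in PCOS. Most of that sum was Inha, at 388–988 FPKM over all libraries. Amh and Inhbb went the other way in PCOS against control without a call, at −0.81 and −0.60 on the log2 scale. Adipocyte markers summed to 24.9–83.3, 13.9–25.4 and 10.6–17.0 FPKM, and all 3 of the 5 listed that could be tested were lower in PCOS. Their sum was highest in control replicate 3, the library with the highest Postn. Fibroblast and stroma markers summed to 703–1043, 688–768 and 602–1070 FPKM, with 2 of 6 higher and 2 lower in PCOS. Smooth muscle markers summed to 345–978, 473–605 and 341–715 FPKM, and 0 of 6 were called in any of the 3 comparisons or had an unadjusted p under 0.05. Leukocyte and macrophage markers summed to 59.8–78.7, 72.1–83.5 and 72.8–95.4 FPKM, with 2 of 6 higher in PCOS and 0 lower. Ovarian surface and mesothelium markers summed to 36.4–139, 117–205 and 59.3–115 FPKM, with 1 of 5 higher in PCOS (Lrrn4) and 0 lower. The 139 FPKM was again that of control replicate 3. Oocyte markers summed to 15.9–28.7, 22.2–29.4 and 18.3–28.2 FPKM, with 1 of 5 tested higher in PCOS. Proliferation markers summed to 29.8–75.0, 28.4–40.8 and 29.3–56.4 FPKM, with 1 of 4 lower. The part of these cell types in the values of the 10 genes was not tested.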

How the data were processed

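Ovaries were frozen and RNA was extracted with Trizol, and 1 library per rat was built with the NEBNext Ultra RNA kit. According to the study's methods, reads were filtered, aligned with HISAT2 v2.0.5 and counted per gene with featureCounts, while the submitters' processing notes name STAR 2.5.1b and HTSeq 0.6.0, and the genome build is not given in the sources used here. The authors computed FPKM from these counts and the gene lengths, and the deposited table used here gives FPKM and no counts per library, so a test on log values was used in place of one on counts. Their table also holds their own fold changes and p-values for each comparison, which were not used. Columns whose names start with MG were taken as the PCOS-MV group.

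The 26928 transcript lines were reduced to 1 line for each of 19730 genes, whose values did not differ between lines. The 13430 genes whose 12 libraries averaged 1 FPKM or more were tested with limma 3.58.1 in R 4.3.3 on log2(FPKM + 1), with lmFit and eBayes with a trend in the prior variance, 4 libraries against 4 for each pair of groups. Adjusted p-values are by Benjamini-Hochberg over all tested genes, and a call is an adjusted p under 0.05. The exact permutation tests were two-sided (scipy 1.17.1). The limma step was tested on simulated data. No 2 libraries held identical values. The labels tie the replicate numbers to no shared litter or day, and the main fit has no replicate block.

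The 10 genes, the lists and the markers were chosen with earlier results of these data known. Named from the lists are, per comparison, the 2 called genes with the largest rise and the 2 with the largest fall, and for Tnc the 5 tested genes of the nearest profile. Listed names without a row (Tnxb, Mfap4, Thsd4, Itgb5, Cd36, Pecam1, Itgam, Akr1c18, Foxj1 and Ovgp1) were not analysed here. Promoters were matched by symbol to the RefSeq table of GRCr8, where Thbs2, Fn1 and Eln matched no entry. Alternatives were other pseudocounts (0.1 and 5), other filters, 1 model for all 12 libraries, rescaled libraries, a replicate block, no trend, and each library left out in turn. Leaving out PCOS-MV replicates 2 and 4 together was added after the data were seen.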

Additional observations from a re-analysis of the deposited data

Results flagged for a closer look

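A sample was set aside for a closer look where, in a group of 4 libraries, its gap to the nearest of the others took a larger share of the group's range than Dixon's 95% critical value. Of 87 groups examined over the 10 genes, the genes named from the lists and the 5 genes most like Tnc, 9 had such a sample, and chance alone gives about 4.35.

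Postn was at 16.848 FPKM in control replicate 3 against 2.51 to 4.68 in the other controls. Sparc was at 391.98 FPKM in PCOS-MV replicate 1 against 499 to 513 in the others of that group, and Spp1 was at 57.328 in PCOS-MV replicate 3 against 15.4 to 20.9. Fbln5 was at 12.772 FPKM in control replicate 2 against at most 11.3, and Eln was at 13.438 in control replicate 4 against 19.7 to 19.8. Among the related genes, PCOS-MV replicate 3 stood apart for Ccn2 with 45.566 FPKM against 17.1 to 21.8, and for Loxl2 with 40.312 against 19.5 to 21.8. Itga8 was at 30.626 FPKM in control replicate 2 against 15.6 to 17.9, and Kl was at 1.6889 in PCOS replicate 2 against 1.13 to 1.21. No cause of these values was tested. The 2 high Tnc values of the PCOS-MV group are not among them, since 2 of 4 libraries shared the height.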

How the results depend on the processing

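Without depth, the counting error of low genes such as Thbs2 and Dmp1 cannot be given, and with 4 rats a group the smallest exact p is 0.0286. Fn1, Thbs1, Thbs2 and Fbln5 kept their calls in PCOS against control in all 8 fits that left out 1 library. With a filter of at least 5 FPKM, where Postn and Thbs2 are no longer tested, 3 of the set were called in place of 5, and the other elastic fibre genes called in PCOS-MV against PCOS were 5 in place of 9. Of those 9, Fbn2, Loxl4, Ltbp2 and Emilin2 average under 5 FPKM and were no longer tested. With no filter, the other matricellular genes called were 7 in place of 4 in PCOS against control and 5 in place of 3 in PCOS-MV against PCOS, with 21 genes tested. The genes added there all averaged under 1 FPKM. The share of all genes called under each altered setting is not given here, so these counts cannot be set against it. Over fits without 1 library, the counts ranged from 4 to 6 for the set in PCOS against control, from 1 (without PCOS replicate 4) to 5 and, in PCOS-MV against PCOS, from 2 to 6 (without PCOS-MV replicate 3) for the other matricellular genes, from 9 to 11 and from 7 to 11 for the other elastic fibre genes, and from 7 to 11 and from 8 to 11 for the receptors, while all stayed at 0 in PCOS-MV against control. The call of Postn was also lost with a pseudocount of 5 (limma adjusted p = 0.1), with no filter (0.086), with rescaled libraries (0.051) and without the trend (0.0502), and that of Smoc2 with no filter (0.0604) and in 1 model for all libraries (0.0892). The deviations of same-numbered libraries correlated over 0.1 in 0 of 4 pairs of PCOS and control, 3 of 4 of PCOS-MV and PCOS (0.0353 to 0.172, with 7 of 8 libraries nearest to their own number) and 1 of 4 of PCOS-MV and control, a hint of pairing from the data in the second. With the replicate number as a block, the calls of Postn (0.0757) and Ccn2 (0.0539) were lost in PCOS against control, and the counts were 4 for the set, 3 and 4 for the other matricellular genes, 7 and 9 for the other elastic fibre genes and 7 and 9 for the receptors, and 0 in PCOS-MV against control. Uncalled differences changed sign without 1 library for Thbs1 (−0.1333 to 0.04732), Thbs2 (−0.17 to 0.12), Fbln5 (−0.001298 to 0.07731) and Eln (−0.05865 to 0.22) in PCOS-MV against control and for Spp1 (−0.17 to 0.36) in PCOS against control, and with PCOS-MV replicates 2 and 4 left out for Spp1 (0.09482) and Eln (−0.11) in PCOS-MV against control. In PCOS-MV against PCOS, which was not tested, the differences of Postn (−0.1045 to 0.3485) and Fbn1 (−0.1274 to 0.04373) also changed sign without 1 library, while moving by less than 1 SD. Apart from the tested values that changed sign, 801 values for single genes kept their direction and call or, if untested, moved by less than 1 SD. Of the rest, 31 lost a call, 1 gained one and 7 untested differences moved by more than 1 SD. Among those 7 were those of Tnc in PCOS against control (−3.54 with a pseudocount of 0.1 and −1.44 with 5). The cause of these changes was not tested.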
